A study of Mus musculus with 5 samples.

Results

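The genes described here encode the enzymes that build cholesterol and fatty acids, the proteins that sense and carry sterols, and the transcription factors that control both routes. They were taken by symbol from the deposited count table, and all 32 chosen genes were among the 13143 listed and the 11975 tested. The sterol arm held 22 of them, of which 17 were enzymes from acetoacetyl-CoA to cholesterol and 5 were genes of sterol sensing and transport. The fatty acid arm held 10, of which 4 were desaturases.

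Cholesterol and fatty acids are both made from acetyl-CoA in the cytosol and the endoplasmic reticulum. When membrane sterol is low, the escort protein SCAP carries the SREBP transcription factors to the Golgi, where they are cut and freed to enter the nucleus. When sterol is plentiful, the INSIG proteins hold SCAP back. SREBP-2 is best known for driving the sterol enzymes and SREBP-1 for driving fatty acid synthesis and desaturation, and proliferating tumour cells often make much of their own lipid.

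The data compared 4T1 cells, a mouse mammary carcinoma line, with and without TAZ (gene Wwtr1), a transcriptional coactivator of the Hippo pathway that acts through TEAD factors. The 3 WT libraries were single-cell clones of 4T1 cells carrying Cas9 that had received no guide RNA. The 2 TAZ-KO libraries were clones of a single Cas9-expressing clone that carried the same guide against Wwtr1. All 5 were untreated cultures in RPMI with serum, all had been selected with blasticidin for Cas9, and the TAZ-KO clones had also been selected with puromycin. The sources do not say whether the WT clones share the founder of the TAZ-KO clones, so that differences due to the founder, the guide vector or its selection cannot be told apart from loss of TAZ. Every library came from 1 clone, so p-values refer to the spread between clones, with any batch included. The paper corrected its cultured-cell data for batch, but no label names one, so that clone and batch cannot be told apart. An exact permutation test of 3 against 2 cannot give a p below 0.1.

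Sequences upstream of 5 genes are shown because each holds the motifs discussed with the results for its arm. They are the reference sequence from RefSeq (build GRCm38.p6), read 5′ to 3′ on the strand of the gene, and were not sequenced in these clones. Capitals mark CCAAT, which is bound by NF-Y and reads ATTGG on the other strand, the sterol response element TCACNCCAC, the E-box CACGTG and the TEAD motif CATTCC. The window of Hmgcs1, the HMG-CoA synthase gene, is chr13:119690176-119690256, plus strand, 175 to 95 bases before the start. That of Hsd17b7, a sterol ketoreductase gene, is chr1:169969260-169969370, minus strand, 165 to 55 bases before the start. That of Mvk, the mevalonate kinase gene, is chr5:114444099-114444224, plus strand, 170 to 45 bases before the start. That of Fasn, the fatty acid synthase gene, is chr11:120824592-120824642, minus strand, 95 to 45 bases before the start. That of Acss2, a gene for the acetyl-CoA synthetase of the cytosol, is chr2:155517811-155517868, plus strand, 232 to 175 bases before the start. The windows of Hmgcs1 and Mvk each open inside a further CCAAT copy, which is cut and therefore not marked.
Hmgcs1: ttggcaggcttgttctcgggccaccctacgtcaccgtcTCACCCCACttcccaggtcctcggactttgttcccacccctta
Hsd17b7: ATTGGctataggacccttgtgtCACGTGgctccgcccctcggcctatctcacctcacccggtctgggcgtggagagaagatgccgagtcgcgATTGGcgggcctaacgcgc
Mvk: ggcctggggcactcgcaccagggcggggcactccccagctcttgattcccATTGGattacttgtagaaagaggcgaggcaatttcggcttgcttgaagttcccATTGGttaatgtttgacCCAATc
Fasn: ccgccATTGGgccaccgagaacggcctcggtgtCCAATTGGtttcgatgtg
Acss2: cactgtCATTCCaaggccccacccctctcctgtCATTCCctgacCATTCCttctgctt

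A promoter of 250 bases before to 50 after the start was found for 25 of the 32 genes. CCAAT on either strand lay in 13 of 14 sterol enzyme promoters (92.9%) and 4 of 7 of the fatty acid arm (57.1%), compared with 41.1% of the 27025 genes that have a promoter in the table and 43.4% of 9098 tested genes. Acat2, the gene of the first enzyme of the route, was the sterol enzyme without it. TCACNCCAC on either strand lay in 1 of 25 genes, Hmgcs1, against 1.44% of all genes and 1.38% of tested genes. CACGTG lay in 5 of 25 (Hsd17b7, Sc5d, Dhcr7, Scap and Insig1), against 8.09% of all genes and 11.9% of tested genes. CATTCC on either strand lay in 1 of 25, Acss2, where it occurred 3 times, against 16.6% of all genes and 14.3% of tested genes. A gene was counted if any of its promoters held the motif, and Dhcr7 had 3 promoters and Scap 2. In Fasn 2 of the 3 CCAAT copies overlap on opposite strands. The motif counts describe letters in these windows and were not tested.

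The libraries held from 14695384 to 16452147 counts, of which 3 counts corresponded to 0.184 to 0.203 CPM, the unit of level here (counts relative to a library total that TMM scaled). Wwtr1 itself measured 659.7, 312 and 315 CPM across the WT clones and 129 and 152 CPM across the knockouts, so that both knockout clones lay under all WT clones (a log2 fold change of -1.61, SE 0.40, adjusted p = 0.19 in edgeR, 0.00193 in edgeR without WT clone 1 and 0.00594 in DESeq2). All 6 epithelial markers were listed, although Cldn7 was at no more than 3.73 CPM, and none of the 4 adipocyte markers was. Of 5 fibroblast markers only Pdgfra was listed, at 117, 37.9 and 26.3 CPM in WT and 90.8 and 89.7 CPM in the knockouts. Of 5 leukocyte markers 3 were listed, with summed levels of 1.17 to 6.71 CPM across the clones. Of 3 endothelial markers 2 were listed, with summed levels of 0.308 to 1.49 CPM. WT clone 1 stood apart from the other WT clones in several genes. Krt8 was at 1328 CPM in it against 271 and 322 CPM in the others, and Krt18 at 2210 against 787 and 813 CPM. Cdh1 went the other way, at 246 against 658 and 490 CPM. WT clone 1 also stood apart in the genes of S phase. Its mean level over 20 S phase genes, centred on the 5 libraries, was 0.37 on the log2 scale, compared with -0.89 and -0.63 for the other WT clones and 0.51 and 0.64 in the TAZ-KO clones. Results that rest on WT clone 1 are therefore given with and without it.

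In RNA from a whole culture, fewer expressing cells and less RNA per cell cannot be told apart. No gene of either arm passed the edgeR test at an adjusted p of 0.05, at which 0.00835% of all tested genes were called higher and 0.0418% lower in TAZ-KO clones. At an unadjusted p of 0.05, 7 of the 32 genes were higher and 2 lower, against 7.94% and 9.41% of all tested genes. DESeq2 called 1 higher (Hsd17b7) and 2 lower (Scd1 and Fads1), against 2.15% and 3.11% of all genes. With 1 surrogate variable as a covariate, edgeR called 2 lower, again Scd1 and Fads1, and none higher, against 2.38% and 1.7%, and limma-voom called none of the 32. Without WT clone 1, edgeR called 13 higher and 4 lower, at a background of 19.1% and 19.7% of all tested genes. In 12 of the 32 genes both TAZ-KO clones exceeded every WT clone, and in 6 they were under every WT clone, where 18.7% and 18.6% of all tested genes did so.

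**Figure D1:**
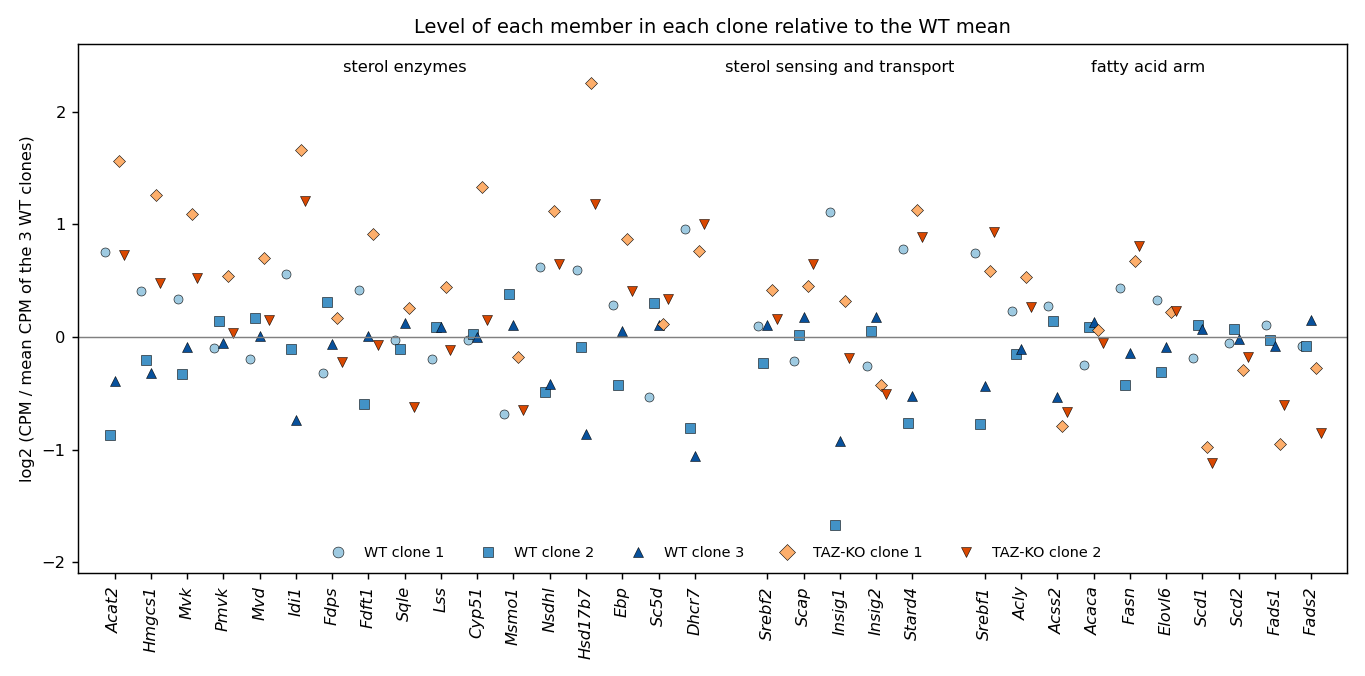
Level of each of the 32 genes in each clone, as the log2 ratio of its CPM to the mean CPM of the 3 WT clones (y axis), grouped by arm (x axis); points are single libraries and the line at 0 is the WT mean. TAZ-KO clone 1 is the highest of the 5 clones in 13 of the 17 sterol enzymes, and both TAZ-KO clones lie below all WT clones in Scd1, Scd2, Fads1 and Fads2.

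The sterol enzymes were mostly higher in the TAZ-KO clones, but by an amount that depended on the clone. Of the 17 enzymes, 14 had a positive log2 fold change and 3 a negative one (median 0.66, range -0.39 to 1.81), compared with a median of -0.03 over all tested genes. Both TAZ-KO clones were above every WT clone in 7 of the 17 enzymes and below in none, where 18.7% and 18.6% of all tested genes did so. TAZ-KO clone 1 was above TAZ-KO clone 2 in 15 of 17 and was the highest of the 5 clones in 13. Over the whole sterol arm, the mean centred log2 level was 0.59 for TAZ-KO clone 1 and 0.12 for TAZ-KO clone 2, compared with 0.04, -0.39 and -0.35 for the WT clones in order. The median fold change of the 22 sterol genes was 0.53 on the log2 scale with all clones, 0.27 without TAZ-KO clone 1 and 0.73 without TAZ-KO clone 2.

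The first steps of the route join acetyl units and phosphorylate mevalonate. Acat2, whose product makes acetoacetyl-CoA, was at 27.9, 9.08 and 12.6 CPM in the WT clones and 48.9 and 27.4 CPM in the knockouts, where TAZ-KO clone 2 was just under WT clone 1 (a log2 fold change of 1.20, SE 0.52, adjusted p = 0.30; 1.81 without WT clone 1, adjusted p = 0.00406). Hmgcs1 (chr13:119690351-119708260) was at 50.7, 33.1 and 30.6 CPM in WT and 91.2 and 53.2 CPM in the knockouts. TAZ-KO clone 1 was well above the rest and TAZ-KO clone 2 only slightly above WT clone 1, and the log2 fold change was 0.92 (SE 0.33, adjusted p = 0.26; 1.18 without WT clone 1, adjusted p = 0.00907). Mvk was at 17.4, 10.9 and 13.0 CPM and at 29.2 and 19.7 CPM, again with no overlap between the groups (log2 fold change 0.83, SE 0.31, adjusted p = 0.27; 1.04 without WT clone 1, adjusted p = 0.0156). Pmvk and Mvd, which carry out the next steps from mevalonate, had log2 fold changes of 0.31 (SE 0.27) and 0.45 (SE 0.33) and overlapping groups.

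Isoprene units are then condensed to squalene. Idi1, which interconverts the isoprene units, was low in every clone, at 1.36, 0.859 and 0.555 CPM in WT and 2.91 and 2.13 CPM in the knockouts. These levels rest on 9 to 44 counts, and the groups did not overlap (log2 fold change 1.45, SE 0.53, adjusted p = 0.26; 1.83 without WT clone 1, adjusted p = 0.0220). Fdps, the farnesyl diphosphate synthase gene, ranged from 32.8 to 50.5 CPM in WT and from 35.0 to 45.9 CPM in the knockouts, and its log2 fold change of -0.01 (SE 0.26) was well within the spread of the clones. Exons of Fdps share 1124 bases with Gm43738 on the same strand, which strand information could not separate. Fdft1, the squalene synthase gene, was at 47.7, 23.7 and 35.9 CPM and at 67.6 and 34.1 CPM, so that TAZ-KO clone 2 lay inside the WT range and TAZ-KO clone 1 above it. Its exons share 774 bases with those of Ctsb on the opposite strand, and without strand information reads from this stretch cannot be told apart. The same holds for 985 bases of Scap, 557 of Hmgcs1, 381 of Lss and 323 of Idi1, shared with genes that were not tested.

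Sqle (chr15:59315092-59331193), the squalene epoxidase gene, was at 112, 106 and 124 CPM in the WT clones. It was at 136 CPM in TAZ-KO clone 1 and 74.1 CPM in TAZ-KO clone 2, the highest and the lowest of the 5 clones (a log2 fold change of -0.12, SE 0.29, adjusted p = 0.85). Both TAZ-KO clones thus stood on opposite sides of a narrow WT range. Lss, the lanosterol synthase gene, ranged from 23.1 to 28.2 CPM in WT and was at 36.1 and 24.6 CPM in the knockouts.

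From lanosterol on, methyl groups are removed and double bonds moved. Cyp51, which removes the first methyl group, was nearly constant in WT, at 31.6, 32.8 and 32.3 CPM, and was at 81.0 CPM in TAZ-KO clone 1 and 35.7 CPM in TAZ-KO clone 2. The groups did not overlap (log2 fold change 0.86, SE 0.35, adjusted p = 0.28), but the log2 fold change was 0.17 without TAZ-KO clone 1. Exons of Cyp51 share 166 bases with Akap9 on the opposite strand. Nsdhl, a sterol dehydrogenase gene of the demethylation steps, was at 26.1, 12.1 and 12.8 CPM and at 36.8 and 26.6 CPM, with WT clone 1 next to TAZ-KO clone 2 (log2 fold change 0.90, SE 0.40, adjusted p = 0.31; 1.35 without WT clone 1, adjusted p = 0.00371). Msmo1, the methylsterol oxidase gene of the same steps, went the other way, at 62.5, 130.4 and 108 CPM in WT and 88.8 and 63.8 CPM in the knockouts, and the groups overlapped (log2 fold change -0.39, SE 0.35, adjusted p = 0.56). Without WT clone 1 it was called lower (log2 fold change -0.64, adjusted p = 0.0382).

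Hsd17b7 (chr1:169949535-169969242) had the largest positive fold change of the 32 genes, and its promoter holds 2 CCAAT motifs and an E-box in the window shown. It was at 6.58, 4.11 and 2.41 CPM in the WT clones and at 20.8 and 9.87 CPM in the knockouts. Every TAZ-KO clone was above every WT clone (a log2 fold change of 1.81, SE 0.52, adjusted p = 0.21 in edgeR, 0.00660 in edgeR without WT clone 1, 0.13 with 1 surrogate variable and 0.0310 in DESeq2). Ebp, the sterol isomerase gene, was at 32.6, 19.998 and 27.8 CPM in WT and 49.0 and 35.5 CPM in the knockouts, again without overlap (log2 fold change 0.66, SE 0.29, adjusted p = 0.30; 0.83 without WT clone 1, adjusted p = 0.0268). Sc5d, a sterol desaturase gene, ranged from 29.0 to 51.5 CPM in WT and was at 45.1 and 52.8 CPM in the knockouts. Dhcr7, whose product makes cholesterol from its last precursor, was at 77.4 CPM in WT clone 1 but only 22.7 and 19.1 CPM in the other WT clones, against 67.6 and 79.8 CPM in the knockouts. WT clone 1 thus lay between the TAZ-KO clones for this gene, and the log2 fold change of 0.89 (SE 0.60, adjusted p = 0.46) became 1.82 without it (adjusted p = 0.000587) but 0.23 with 1 surrogate variable (adjusted p = 0.52).

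**Figure D2:**
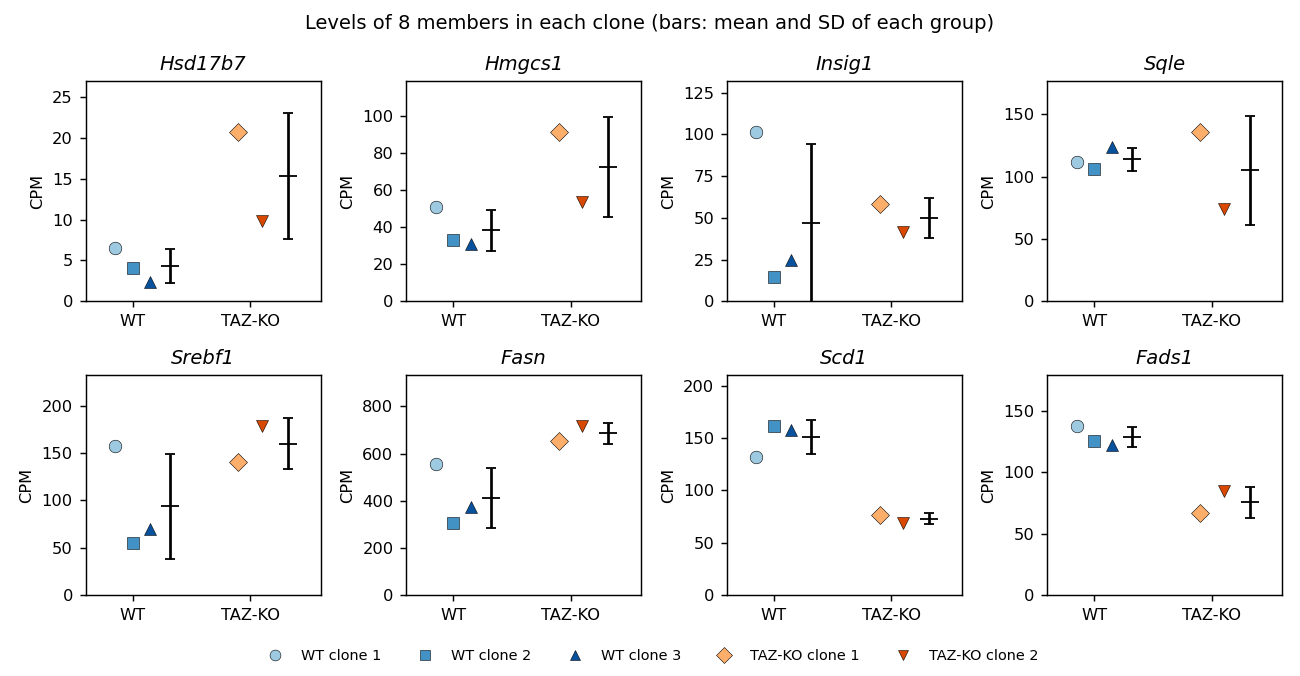
CPM (y axis, from 0) of 8 genes in each clone, with the mean and SD of the 3 WT and the 2 TAZ-KO clones as bars beside the points; a lower bar that would pass below 0 ends at the axis. Insig1 in WT clone 1 is at 102 CPM against 14.8 and 24.7 CPM in the other WT clones, whereas Scd1 separates the groups, at 132 to 162 CPM in WT and 69.3 to 76.8 CPM in the knockouts.

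Among the regulators, Srebf2, the SREBP-2 gene, differed little, at 177, 141 and 178 CPM in WT and 221 and 185 CPM in the knockouts (a log2 fold change of 0.30, SE 0.21, adjusted p = 0.48), although both TAZ-KO clones were above every WT clone. Scap, the escort gene, was at 81.2, 95.3 and 106 CPM and at 129 and 148 CPM, and it was 1 of 3 sterol genes in which TAZ-KO clone 2 exceeded TAZ-KO clone 1 (log2 fold change 0.55, SE 0.21, adjusted p = 0.27). The 30 tested genes nearest to Scap had medians of 0.34 and 0.58 above the WT mean on the log2 scale in TAZ-KO clones 1 and 2, beside 0.46 and 0.66 for Scap itself. Stard4, which encodes a sterol carrier of the cytosol, was at 22.4, 7.73 and 9.13 CPM in WT and 28.6 and 24.2 CPM in the knockouts. Its log2 fold change was 1.01 (SE 0.48, adjusted p = 0.33) and 1.65 without WT clone 1 (adjusted p = 0.00173), but 0.48 with 1 surrogate variable (adjusted p = 0.33).

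The INSIG genes showed unlike patterns. Insig1 (chr5:28071412-28078662) was the most variable of the 32 genes within WT, at 102, 14.8 and 24.7 CPM, a span of 6.87-fold, and was at 58.5 and 41.4 CPM in the knockouts. Both TAZ-KO clones lay inside the WT range, and the log2 fold change was 0.09 (SE 0.78, adjusted p = 0.96), but 1.34 without WT clone 1 (adjusted p = 0.00833) and -0.34 without WT clone 2, and -0.60 with 1 surrogate variable (adjusted p = 0.32). Insig2, which unlike Insig1 is not a classic SREBP target, was at 62.9, 78.4 and 85.1 CPM in WT and 56.1 and 53.2 CPM in the knockouts. Neither TAZ-KO clone reached the lowest WT clone (a log2 fold change of -0.47, SE 0.21, adjusted p = 0.32, and 0.0198 without WT clone 1). The ratio of Insig1 to Insig2 CPM was 1.61, 0.189 and 0.291 across the WT clones and 1.04 and 0.777 in the knockouts, so that WT clone 1 was the highest and the other WT clones the lowest.

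In the sterol arm, the genes called higher without WT clone 1 were Acat2, Hmgcs1, Mvk, Idi1, Nsdhl, Hsd17b7, Ebp, Dhcr7, Insig1 and Stard4, and those called lower were Msmo1 and Insig2. These 10 and 2 of 22 stand beside 19.1% and 19.7% of all tested genes. With 1 surrogate variable none of the 22 was called, and the arm's median was 0.47 on the log2 scale. Each of the 10 then had a log2 fold change below its value with all clones. It was 0.72 for Acat2, 0.65 for Hmgcs1, 0.61 for Mvk, 0.48 for Nsdhl and 0.47 for Ebp. Other genes of the arm, such as Cyp51 (0.91) and Scap (0.71), were above their value with all clones. Of the 20 S phase genes, 18 were called higher without WT clone 1 and 0 with it, and their part in the sterol values was not tested.

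**Figure D3:**
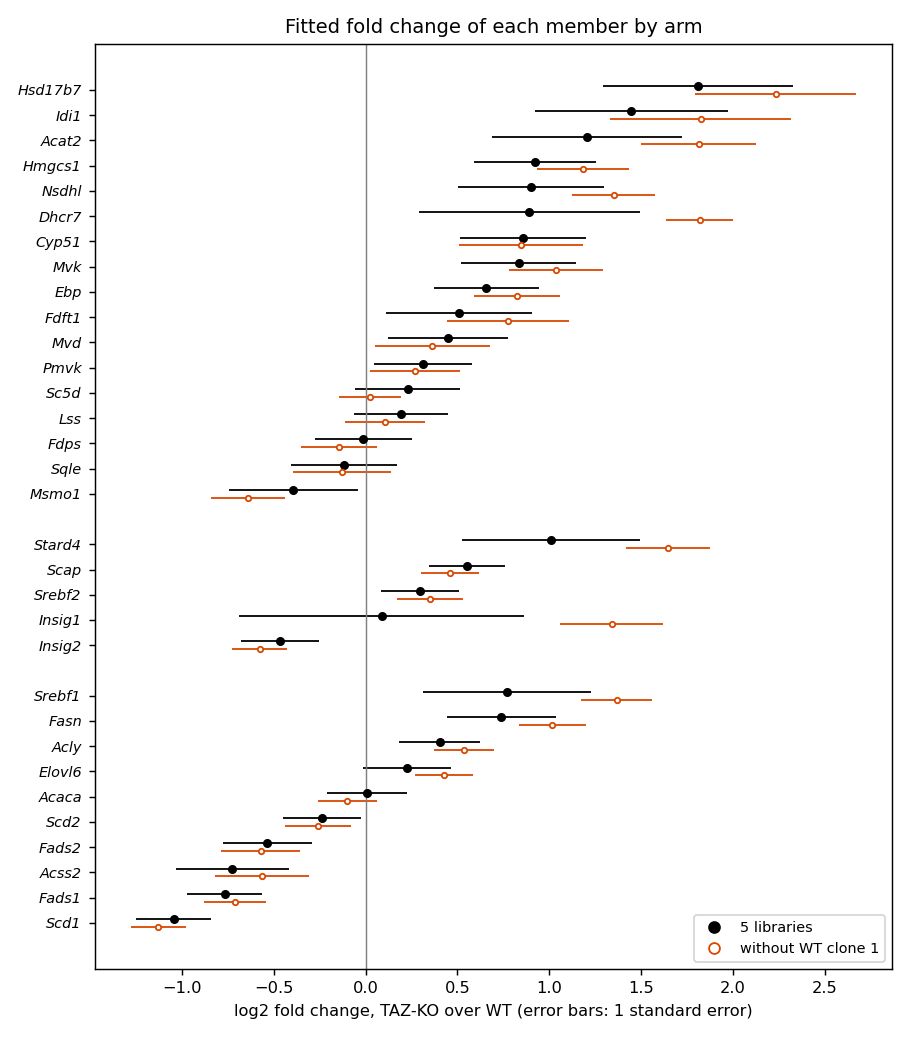
Log2 fold change of TAZ-KO over WT (x axis) with 1 standard error for each gene, from edgeR with all 5 libraries (filled) and without WT clone 1 (open), ordered by size within sterol enzymes, sterol sensing and transport, and the fatty acid arm (y axis). Leaving out WT clone 1 moves Insig1 from 0.09 to 1.34 and Dhcr7 from 0.89 to 1.82, whereas Scd1 is at -1.05 and -1.13.

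In the fatty acid arm the desaturases and Acss2 were lower in TAZ-KO clones, whereas the other genes of synthesis were level or higher. Of its 10 genes, 5 had a positive and 5 a negative log2 fold change (median -0.12, range -1.05 to 0.77). Both TAZ-KO clones were above every WT clone in 2 (Acly and Fasn) and below in 5 (Acss2 and the 4 desaturases), where 18.7% and 18.6% of all tested genes did so.

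Srebf1 (chr11:60199084-60224186), the SREBP-1 gene, was at 157 CPM in WT clone 1, 54.8 and 69.6 CPM in the other WT clones, and 141 and 179 CPM in the knockouts. WT clone 1 lay between both TAZ-KO clones (a log2 fold change of 0.77, SE 0.46, adjusted p = 0.41), and without it the log2 fold change was 1.37 (adjusted p = 0.00190), whereas with 1 surrogate variable it was 0.23 (adjusted p = 0.57). Its exons share 109 bases with those of Rai1 on the opposite strand. Acly, which makes acetyl-CoA from citrate, was at 264, 202 and 209 CPM in WT and 325 and 271 CPM in the knockouts, with TAZ-KO clone 2 close to WT clone 1 (a log2 fold change of 0.40, SE 0.22, adjusted p = 0.38). Without WT clone 1 Acly was called higher (log2 fold change 0.54, adjusted p = 0.0355), whereas with 1 surrogate variable it was at 0.24 (adjusted p = 0.52).

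Acss2, which makes acetyl-CoA from acetate, was at 35.0, 32.0 and 20.04 CPM in WT and 16.8 and 18.3 CPM in the knockouts. Both TAZ-KO clones were lower than every WT clone, though WT clone 3 was near them (log2 fold change -0.73, SE 0.31, adjusted p = 0.29). Its exons share 197 bases with Ggt7 and 395 bases with Gss on the opposite strand, whose log2 fold changes were -0.82 and -1.20, and the 30 tested genes nearest to it had medians of -0.41 and -0.42 in TAZ-KO clones 1 and 2. The part of these neighbours in the Acss2 value was not tested.

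Acaca, the acetyl-CoA carboxylase gene, ranged from 31.6 to 41.3 CPM in WT and was at 39.3 and 36.3 CPM in the knockouts, a log2 fold change of 0.01 (SE 0.22). Fasn (chr11:120805958-120825166), the gene of the enzyme that makes palmitate, was at 555, 307 and 373 CPM in WT and 655 and 719 CPM in the knockouts. Every TAZ-KO clone was above every WT clone, with WT clone 1 the nearest (log2 fold change 0.74, SE 0.30, adjusted p = 0.28). For Fasn it was 1.02 without WT clone 1 (adjusted p = 0.00463) and 0.42 with 1 surrogate variable (adjusted p = 0.29). Elovl6, which lengthens palmitate, was at 90.2, 57.8 and 67.4 CPM and at 83.9 and 84.0 CPM, and WT clone 1 was the highest of the 5 clones (a log2 fold change of 0.23, SE 0.24).

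The desaturase genes varied little among the WT clones, whose highest level was 1.09 to 1.22 times the lowest, and all 4 were lower in both knockouts. Scd1 (chr19:44394450-44407709), whose product makes monounsaturated fatty acids from palmitate and stearate, was at 132, 162 and 158 CPM in the WT clones and 76.8 and 69.3 CPM in the knockouts. The clones of each group lay close together and the groups far apart (2.06-fold lower in TAZ-KO, log2 fold change -1.05, SE 0.20). The adjusted p was 0.14 in edgeR, 0.00106 in DESeq2, 0.0247 with 1 surrogate variable and 0.00158 without WT clone 1. Scd2, its paralogue with the same activity, was at 1022, 1109 and 1043 CPM in WT and 862 and 933 CPM in the knockouts, below every WT clone but by a small amount (log2 fold change -0.24, SE 0.21, adjusted p = 0.56). The ratio of Scd1 to Scd2 CPM was 0.129, 0.146 and 0.152 across the WT clones and 0.0891 and 0.0743 in the knockouts, without overlap. Reads that fit both paralogues could be assigned to either by the counting, and such reads were not examined. They were not examined for Fads1 and Fads2 either.

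Fads1 (chr19:10182877-10196874) and Fads2 encode the desaturases that make polyunsaturated fatty acids and are neighbours on the same chromosome. Fads1 was at 138, 126 and 122 CPM in WT and 66.5 and 84.3 CPM in the knockouts, again with little spread among WT clones (a log2 fold change of -0.77, SE 0.21). Its adjusted p was 0.21 in edgeR, 0.0432 in DESeq2, 0.0423 with 1 surrogate variable and 0.0138 without WT clone 1. Fads2 was at 56.2, 56.3 and 65.9 CPM and at 49.1 and 33.0 CPM, so that TAZ-KO clone 1 was near the WT clones and TAZ-KO clone 2 well below them (log2 fold change -0.54, SE 0.24, adjusted p = 0.32). Averaged over the 4 desaturases, the centred log2 level was 0.21, 0.28 and 0.29 for WT and -0.36 and -0.43 for the knockouts.

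Fatty acid synthase and its desaturase partner thus differed in opposite directions in the same clones. The ratio of Fasn to Scd1 CPM was 4.19, 1.90 and 2.36 across the WT clones and 8.53 and 10.4 in the knockouts, and both TAZ-KO clones were above every WT clone. The ratio of Fasn to Fads1 was 4.02, 2.44 and 3.07 in WT and 9.86 and 8.53 in the knockouts. These are ratios of CPM within a clone and do not compare the genes' molar levels, since they are not per length.

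Position on the chromosome was examined next, because a stretch of neighbouring genes can differ together between clones. Each gene was set beside the median of its 30 nearest tested genes, as the log2 difference of each TAZ-KO clone from the WT mean. The genes around Sqle were lower in both TAZ-KO clones, with medians of -1.06 and -0.97 in clones 1 and 2, and 22 of 30 were lower in both. Sqle itself was at 0.26 and -0.62, above its neighbours in each clone. Within 10 Mb after the start of Sqle the 14 tested genes had medians of -1.21 and -1.12. WT clone 1 was also low there, with a median of -0.26 against 0.25 and 0.13 for the other WT clones. Within 10 Mb before the start, the 30 tested genes had medians of -0.84 and -0.54 in TAZ-KO clones 1 and 2 and of 0.01 to 0.04 in the WT clones. From 20 to 30 Mb after it, the 105 tested genes had medians of 0.00 in both TAZ-KO clones.

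**Figure D4:**
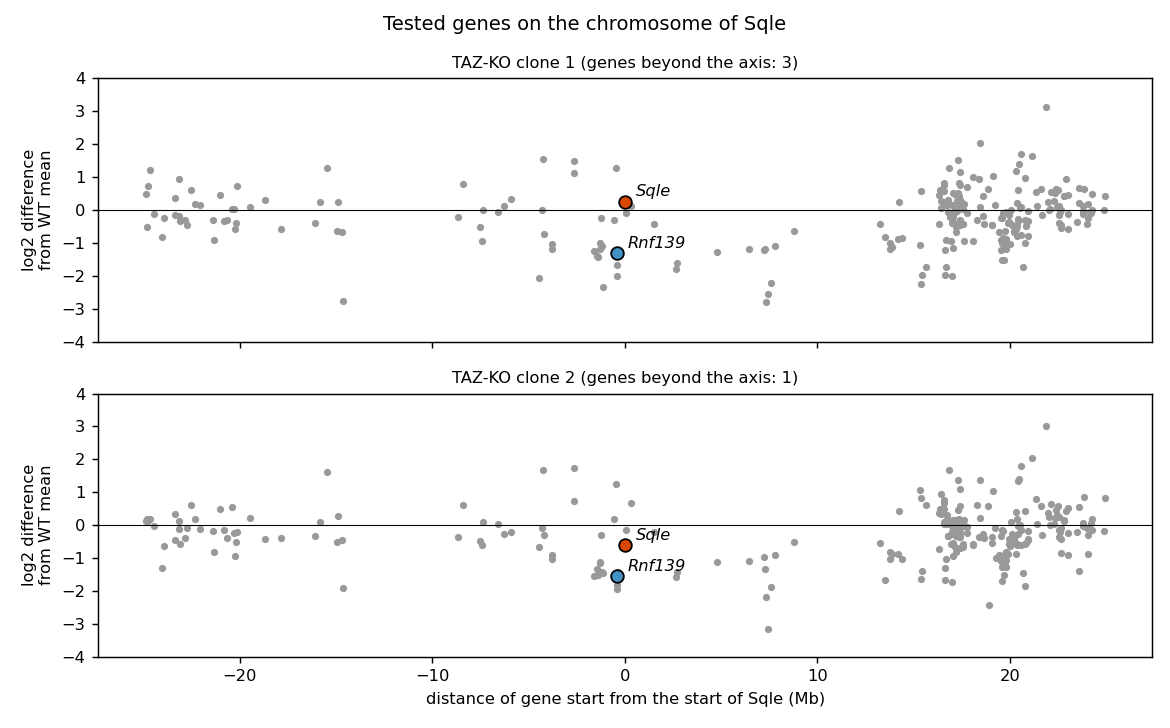
Log2 difference from the WT mean (y axis) of each tested gene against its distance in Mb from the start of Sqle (x axis), in TAZ-KO clone 1 (top) and TAZ-KO clone 2 (bottom); each point is a gene. Most genes from about the start of Sqle to 10 Mb after it lie below 0 in both clones, while Sqle lies at 0.26 and -0.62.

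Rnf139, which encodes a sterol-regulated ubiquitin ligase, starts at chr15:58889229 in the same stretch. It was at 170.1, 152 and 153 CPM in the WT clones and 63.5 and 53.8 CPM in the knockouts (a log2 fold change of -1.43, SE 0.20, adjusted p = 0.0892 in edgeR and 1.4e-07 in DESeq2). Its 30 nearest genes had medians of -1.02 and -0.78 in TAZ-KO clones 1 and 2, beside -1.31 and -1.55 for Rnf139. The 4 desaturases all lie on chromosome 19, over which the tested genes had medians of -0.16 and -0.19 in TAZ-KO clones 1 and 2. Scd1, at -0.97 and -1.12, lay well below its nearest 30 genes (-0.10 and -0.13), as did Fads1, at -0.95 and -0.61 beside -0.16 and -0.15. Scd2, at -0.30 and -0.18, was near its neighbours (-0.18 and -0.17). Fads2, at -0.27 and -0.84 beside -0.16 and -0.15, was near its neighbours in TAZ-KO clone 1 and well below them in TAZ-KO clone 2. Hsd17b7, at 2.33 and 1.27, stood above neighbours at 0.10 and 0.11. Fasn, at 0.72 and 0.85, stood above neighbours at 0.30 and 0.32, and its mean difference was 0.49 with their median taken off. With the neighbours' median taken off, the median of the sterol arm was 0.52 and that of the fatty acid arm -0.04.

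**Figure D5:**
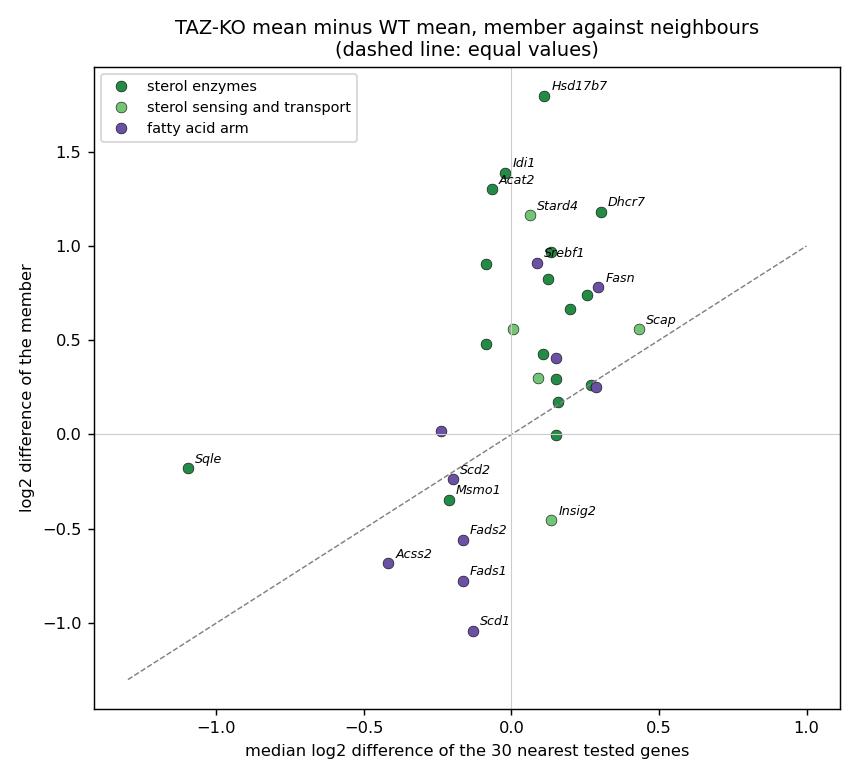
Mean log2 difference of the TAZ-KO clones from the WT mean for each gene (y axis) against the median of its 30 nearest tested genes (x axis), coloured by arm, with a dashed line where both are equal. Sqle stands apart at the left, with neighbours at -1.10 and itself at -0.18, and Scd1 lies at -1.04 with neighbours at -0.13.

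Other genes of the same pathways lay on both sides of 0. Of 36 further sterol pathway genes (processing, turnover, transport and efflux), 34 were tested, 15 with a positive and 19 with a negative log2 fold change (median -0.05). None passed edgeR, and 5 of 34 were higher and 3 lower at an unadjusted p of 0.05, against 7.94% and 9.41% of all tested genes. DESeq2 called Abca1 higher and Rnf139 lower, 1 of 35 each, near the 2.15% and 3.11% of all genes. Soat1, which esterifies cholesterol, was at 127, 123 and 145 CPM in WT and 188 and 201 CPM in the knockouts (a log2 fold change of 0.57, SE 0.19, adjusted p = 0.24). Abca1, the cholesterol efflux pump gene, had 6, 1 and 2 counts across the WT clones and 13 and 50 in the knockouts, and its receptor-type regulator Nr1h3 had 22, 56 and 42 counts and 10 and 8 counts. Both rest on few counts.

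Of 40 further genes of fatty acid and lipid metabolism, 32 were tested, 19 with a positive and 13 with a negative log2 fold change (median 0.09). None passed edgeR, and 2 of 32 were higher and 3 lower at an unadjusted p of 0.05, no more than the 7.94% and 9.41% of all tested genes. DESeq2 called Acsl1 higher and Plin2 and Slc25a1 lower, against 2.15% and 3.11% of all genes. Acsl1, which activates long-chain fatty acids, was at 25.02, 24.4 and 21.8 CPM in WT and 47.1 and 50.04 CPM in the knockouts, without overlap (log2 fold change 1.03, SE 0.20, adjusted p = 0.14). Plin2, which coats lipid droplets, was at 145, 269.9 and 226 CPM and at 69.7 and 83.5 CPM (log2 fold change -1.48, SE 0.31, adjusted p = 0.14). Both TAZ-KO clones were thus lower than the lowest WT clone, which was WT clone 1. Slc25a1, the mitochondrial citrate exporter gene, was at 41.9, 41.5 and 34.5 CPM and at 22.5 and 21.7 CPM (log2 fold change -0.83, SE 0.21, adjusted p = 0.20). Pnpla2, the triglyceride lipase gene, was at 120.2, 119 and 102 CPM and at 59.0 and 82.8 CPM (log2 fold change -0.68, SE 0.23, adjusted p = 0.25).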

How the data were processed

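RNA was sequenced from 5 cultured 4T1 libraries, 3 WT and 2 TAZ-KO, grouped and numbered by the labels. The deposited names of both TAZ-KO columns contain YAP, whereas their labels say TAZ knockout. The authors deposited a single table, which holds the raw counts, a signal normalised by size factors, regularised log2 values, and the fold changes and p-values of their own comparison. Only the raw counts entered the analysis. The other 10 per-sample columns and the comparison were left out. Trimming by cutadapt, alignment by STAR to GRCm38 and counting in UTAP are described in the methods, and the submitters' notes name mm10 and DESeq2. The methods also describe a batch correction with sva for the RNA-seq of cultured cells, without naming the batches. The raw counts used here carry no such correction. The labels name an mRNA protocol and the methods a 3′ end protocol, and the use of strand in counting was not stated in any source used here. Every listed gene has at least 6 counts in at least 1 library, and weaker genes of the lists are therefore outside the table.

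Genotype was tested in edgeR 4.0.16 (under R 4.3.3) by quasi-likelihood, with TMM and filterByExpr and no other term, and p-values were adjusted by Benjamini-Hochberg over 11975 genes, with a threshold of 0.05. Fold changes are TAZ-KO over WT, and SE is the log2 fold change over the square root of F. Position differences were taken on log2 CPM (prior count 2), and 11421 tested symbols had a position in RefSeq (GRCm38.p6). Exon overlaps came from the GENCODE annotation of GRCm38. Alternatives were DESeq2 size factors, total counts, omission of the low-count filter, a minimum of 50 counts in 2 libraries, DESeq2 1.42.0, limma-voom (limma 3.58.1), replicate number as a block, 1 surrogate variable (sva 3.50.0) and leaving out each library. Subtraction of the 30 nearest genes was added after seeing the data. The fold changes of the edgeR fit were checked on simulated counts that had the same dispersion for every gene and no outlying clone. That check does not show how often genes are falsely called in these clones.

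Clone values are given for genes with an unadjusted p under 0.05 with all clones or without WT clone 1, genes whose groups do not overlap and the main regulators, and the rest by range. Of the other lists, up to 4 genes with the smallest p are named. The genes, arms, lists and tests were chosen with earlier results of these data known.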

Additional observations from a re-analysis of the deposited data

How the results depend on the processing

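Of 447 fold changes of the 32 genes over 14 alternatives, 18 changed sign, and 23 genes never did so, among them Hsd17b7, Hmgcs1, Fasn, Scd1, Scd2, Fads1 and Fads2. Without the low-count filter Acaca was at -0.0030. With 1 surrogate variable Fdps was at 0.23, Msmo1 at 0.14, Insig1 at -0.60 and Elovl6 at -0.014. With the 30 nearest genes subtracted Sqle was at 0.92, Sc5d at -0.0037 and Elovl6 at -0.036. Leaving out 1 clone at a time gave -0.21 to 0.17 for Fdps, -0.046 to 0.92 for Fdft1, -0.60 to 0.25 for Sqle, -0.094 to 0.44 for Lss, -0.34 to 1.34 for Insig1 and -0.10 to 0.077 for Acaca.

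Over all genes, edgeR called 6, and 10 without the low-count filter, 690 with DESeq2 (282 higher and 408 lower) and 488 with 1 surrogate variable (203 and 285). Leaving out 1 clone gave 0 to 4598, the latter without WT clone 1 (2263 and 2335) and 0 without any of the other 4. In the sterol arm, DESeq2 called 1 and leaving out 1 clone gave 0 to 12. In the fatty acid arm, DESeq2 and 1 surrogate variable each called 2 and leaving out 1 clone gave 0 to 5. The median of the sterol arm ranged from 0.27 to 0.80 and that of the fatty acid arm from -0.18 to -0.08 over the leave-one-out fits. The other alternatives left both arms at 0 calls. The replicate numbers of the labels gave no sign of pairing the clones (correlation of deviations across genes -0.12 for number 1 and -0.12 for number 2). These values are not independent checks, because the TAZ-KO clones deviate from their mean by equal and opposite amounts. With the number as a block, 0 genes were called.

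With 3 clones against 2, a called difference depends on the spread assumed for single clones. Idi1, with 9 to 44 counts, was not tested at a minimum of 50 counts. The fits without a TAZ-KO clone take the lone TAZ-KO clone to vary as the WT clones do. The table lists no gene with fewer than 6 counts in its highest library, so the absence of a gene from it does not show that it is silent.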
